A study of Mus musculus with 22 samples.

Results

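Colon arrays with a high Hoxb13 signal were compared with colon arrays with a low one, among the mice that had received dextran sodium sulfate (DSS, which injures the colonic epithelium) for 0 or 2 days. Of 22 arrays in all, 14 came from days 0 and 2, and these were chosen by their Hoxb13 signal. The Hoxb13 probe set had a log2 signal above 6 on 8 arrays, called Hoxb13-high here, and under 4 on the other 6, called Hoxb13-low. The samples were homogenized colonic tissue of VC+ mice (PPAR γ fl/fl with Villin Cre, which deletes the nuclear receptor PPAR γ in intestinal epithelial cells) and of VC- mice (PPAR γ fl/fl without Cre), all in a mixed FVB/C57BL/6 background. The groups were VC+ at day 0 (3 arrays, no DSS), VC+ at day 2 (5 arrays, 2.5% DSS), VC- at day 0 (3 arrays) and VC- at day 2 (3 arrays). All mice carried the floxed alleles, and Villin Cre acts in the epithelium only, while the tissue also held muscle and stroma. The 8 arrays of day 7 (4 VC+, 4 VC-, 2.5% DSS) did not enter the choice of limits. The ages of the mice, and whether each array was a separate mouse, are not given in the sources used here, so all p-values reflect only how much these arrays vary, which may be technical in part.

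Hox genes are transcription factors that are switched on in order along the body axis, and in the gut the members at the 5′ end of each cluster mark its most posterior stretch. Hoxb13 is the last member of the B cluster and is known from the distal colon and rectum. The epithelium also changes along the colon, since the proximal part keeps functions shared with the ileum and the distal part absorbs sodium and water and compacts the stool. Hoxb13 therefore serves as a proxy of position, and the position from which each piece was cut is not in the labels.

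The values are GC-RMA log2 signals, 1 for each probe set. Of these, 55.2% on the 14 arrays were under 4, where genes with little or no transcript sit. Fcgbp, a goblet cell mucus protein, read 11.12 or more on all 14 arrays, and the 21 smooth muscle genes measured averaged 8.88 or more. Transcripts of goblet cells and of smooth muscle were thus both in the homogenized colonic tissue. Pparg, the targeted gene, read 8.50 to 8.83 on the 3 VC+ day 0 arrays and 6.87 to 9.54 on the 5 VC+ day 2 arrays, against 9.58 to 9.63 on the 3 VC- day 0 arrays and 9.87 to 10.96 on the 3 VC- day 2 arrays. Among these 14 arrays, no VC+ array reached the range of the VC- arrays, although VC+ day 2 replicate 2 (9.54) came close. At day 7 the genotypes overlapped, with 6.26 to 10.35 on the VC+ and 7.39 to 9.82 on the VC- arrays. Whether the probe set covers the deleted exon is not given in the sources used here. Prss2, a pancreatic trypsinogen, read 13.77 on VC- day 0 replicate 3, which is Hoxb13-high, against 3.27 to 4.20 on the other 13 arrays.

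Hoxb13 itself chose the arrays, so its values are a description. The 8 Hoxb13-high arrays read 7.29 to 12.42 (median 10.06) and the 6 Hoxb13-low arrays 2.88 to 3.09 (median 3.01). The members nearest the limits were VC- day 0 replicate 1 at 7.29 and VC+ day 0 replicate 2 at 3.09, and none of the 14 arrays lay between 4 and 6. Only 1 probe set measures Hoxb13. The split was not even over genotype and day. All 3 VC- day 0 arrays were high (7.29, 9.13 and 9.67) and all 3 VC- day 2 arrays were low (2.88, 2.95 and 3.08), so in VC- mice the Hoxb13 split and the day of DSS cannot be told apart. In VC+ mice both days held arrays of both kinds. Replicate 1 of day 0 was high (12.42) and replicates 2 and 3 were low (3.09 and 2.88), whereas at day 2 replicates 1, 3, 4 and 5 were high (12.42, 9.45, 10.44 and 11.19) and replicate 2 was low (3.07). The Hoxb13-high arrays thus held 5 VC+ and 3 VC- arrays, 4 from day 0 and 4 from day 2, and the Hoxb13-low arrays held 3 VC+ and 3 VC- arrays, 2 from day 0 and 4 from day 2. Xist, which marks females, read above 8 on 3 of the 8 Hoxb13-high and 3 of the 6 Hoxb13-low arrays.

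**Figure D1:**
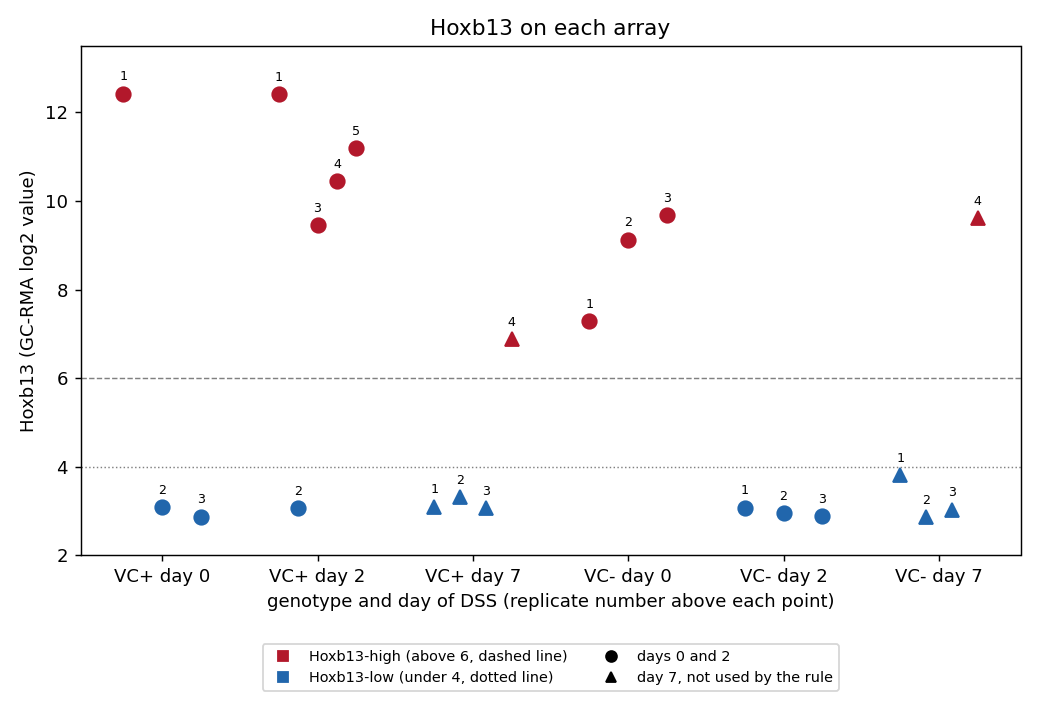
Hoxb13 on all 22 arrays (y axis, GC-RMA log2 signal) by genotype and day of DSS (x axis), with the replicate number above each point, red for Hoxb13-high and blue for Hoxb13-low arrays, and triangles for day 7. The VC- arrays are all high at day 0 and all low at day 2, while both VC+ groups of days 0 and 2 hold arrays of both kinds.

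Beyond Hoxb13, the largest differences without overlap were those of Insl5, an insulin-like peptide (higher), and of Nts, which encodes neurotensin (lower). With genotype and day in the model, 681 of 9096 genes tested passed limma's two-sided test at a Benjamini-Hochberg adjusted p of 0.05 (7.49%), of which 241 were higher (2.65%) and 440 lower (4.84%) on Hoxb13-high arrays. The split was made from a gene measured on the same arrays, so the test shows which genes move with Hoxb13 and is not a test of a treatment. For 266 genes (2.92%) every Hoxb13-high array lay on 1 side of every Hoxb13-low array, 83 of them higher (0.912%) and 183 lower (2.01%). When the 4 genotype and day groups were terms, so that only arrays of the same genotype and day were compared, 283 genes passed (3.11%), 79 higher and 204 lower; that comparison rests on the VC+ arrays, since each VC- group lies in 1 class. Without VC+ day 0 replicate 2 the counts were 100 higher and 220 lower, without VC+ day 0 replicate 3 they were 109 and 222, and without VC- day 2 replicate 1 they were 392 and 547. Without the array with pancreas signal they were 189 higher and 362 lower. A fit of all 22 arrays, with every genotype and day group as a term and a separate class term for day 7, gave 17 and 28. Like the fit with 4 groups (79 and 204), it compared the arrays of days 0 and 2 within groups and so rests on the VC+ arrays for them. In whole tissue, fewer cells of a type and less RNA per cell cannot be told apart.

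Among regulators of position, Osr2 had the smallest adjusted p of the genes named here. Osr2, a zinc finger transcription factor of the odd-skipped family, read 2.44 to 2.52 (median 2.49) on the Hoxb13-high arrays, against 6.50 to 8.87 (median 7.84) on the Hoxb13-low arrays. It sat at background on every high array and was clearly detected on every low one (difference -5.59 ± 0.20 on the log2 scale, SE; adjusted p = 4.25e-09). Hoxd10 did the same, with 2.41 to 2.63 (median 2.43) on the Hoxb13-high arrays and 6.18 to 7.89 (median 7.23) on the Hoxb13-low arrays (-4.74 ± 0.21, adjusted p = 2.38e-08). Hoxd10 belongs to the posterior members of the D cluster by number, yet it was lower where Hoxb13 was high. Hoxd9 also was lower, at 2.93 to 3.02 on the Hoxb13-high arrays against 4.23 to 5.96 on the Hoxb13-low arrays (-2.11 ± 0.21, adjusted p = 8.31e-05). Tbx3, a T-box repressor, was lower by the same pattern (2.24 to 3.69 on the Hoxb13-high arrays and 5.83 to 7.64 on the Hoxb13-low arrays; -3.79 ± 0.23, adjusted p = 7.65e-07).

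The 13 posterior Hox genes measured besides Hoxb13 did not move as a block, and 71.4% of those tested were called, against 7.49% over all genes. Of 7 tested, Hoxa9, Hoxa10 and Hoxa13 were higher (differences of 2.32, 1.89 and 1.77, adjusted p = 0.0125, 0.0174 and 0.00799), Hoxd9 and Hoxd10 were lower, and Hoxa11 (0.26 ± 0.24, adjusted p = 0.589) and Hoxb9 (-0.81 ± 0.34, adjusted p = 0.18) did not pass. None of the 3 higher A cluster genes passed within the genotype and day groups (adjusted p = 0.286, 0.292 and 0.16), and their arrays overlapped. Hoxa9 read 10.03 to 10.99 (median 10.72) on the Hoxb13-high arrays, against 7.19 to 10.60 (median 7.74) on the Hoxb13-low arrays. The low arrays were of 2 sorts here, since VC- day 2 replicate 1 and VC+ day 2 replicate 2 had 10.60 and 10.29 and the other 4 had 7.19 to 7.87. Hoxa10 and Hoxa13 were highest on the same 2 low arrays (8.74 and 7.82 for Hoxa10, 4.80 and 4.60 for Hoxa13). Hoxa11os, the antisense transcript of the Hoxa11 locus, was higher (8.23 to 9.42 on the Hoxb13-high arrays, against 4.16 to 7.72 on the Hoxb13-low arrays; 3.04 ± 0.54, adjusted p = 0.00393, and 0.124 within groups), again with those arrays at the top of the low range (7.72 and 7.37).

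The other 6 posterior Hox genes were outside the more variable genes and were not tested. Hoxc9, Hoxc10, Hoxc13, Hoxd11 and Hoxd12 read 1.84 to 2.62 on all 14 arrays, which is background. Hoxd13, the last member of the D cluster, was detected on a few arrays only. It read 7.10 on VC+ day 0 replicate 1, 6.93 on VC+ day 2 replicate 1, 5.21 on VC+ day 2 replicate 5 and 3.96 on VC+ day 2 replicate 4, which are the 4 arrays with the most Hoxb13, and 2.99 to 3.14 on the other 4 Hoxb13-high arrays, against 2.97 to 3.15 on the Hoxb13-low arrays. Among the 8 anterior and central Hox genes tested, 4 were lower and none higher (50% called, against 7.49% over all genes). Hoxb6 read 3.45 to 3.92 on the Hoxb13-high arrays and 5.89 to 8.18 on the Hoxb13-low arrays, and Hoxb3 read 5.30 to 6.75 on the Hoxb13-high and 8.60 to 10.04 on the Hoxb13-low arrays. Hoxb3, Hoxb6, Hoxb5 and Hoxd8 had differences of -3.05, -3.43, -1.71 and -2.97, and all 4 also passed within the groups. Of the regional regulators tested, 25% were called. The 16 regional regulators tested held 3 lower genes (Osr2, Tbx3 and Isx, a homeobox repressor of intestinal vitamin A metabolism, -2.19) and 1 higher, Foxa2, a forkhead factor of endoderm (8.13 to 9.15 on the Hoxb13-high arrays against 6.34 to 7.53 on the Hoxb13-low arrays; 1.86 ± 0.20).

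**Figure D2:**
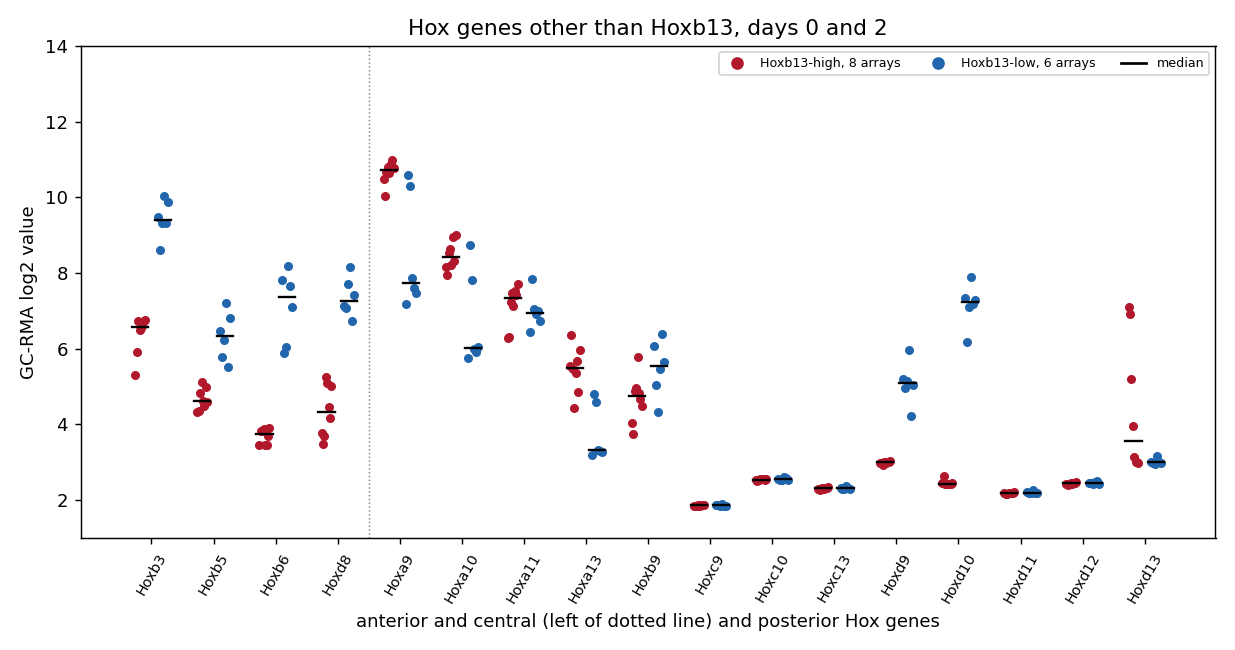
GC-RMA log2 signal (y axis) of the anterior and central Hox genes that passed the test (left of the dotted line) and of the 13 posterior Hox genes measured besides Hoxb13 (right), with 1 point per array, red for the 8 Hoxb13-high and blue for the 6 Hoxb13-low arrays, and a black bar at the median. Hoxd10 sits at 2.41 to 2.63 on the Hoxb13-high arrays and at 6.18 to 7.89 on the Hoxb13-low arrays, while Hoxd13 exceeds 3.5 on 4 Hoxb13-high arrays.

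Enteroendocrine hormone genes divided between the 2 kinds of array. Of 14 tested, 2 were higher and 8 lower on the Hoxb13-high arrays (71.4% called, against 7.49% over all genes). Their median difference was -0.97, against -0.00 over all genes tested. Insl5, an insulin-like peptide of colonic L cells, had the largest positive difference among genes whose arrays did not overlap. It read 9.70 to 12.14 (median 11.44) on the Hoxb13-high arrays, against 2.91 to 7.60 (median 5.30) on the Hoxb13-low arrays (5.80 ± 0.72, adjusted p = 0.000424). Nts, which encodes neurotensin, ran the other way, with 2.73 to 8.13 (median 3.38) on the Hoxb13-high arrays and 10.21 to 11.61 (median 11.35) on the Hoxb13-low arrays (-6.86 ± 0.72, adjusted p = 0.000131). The high arrays differed among themselves for Nts, since 3 of them (VC- day 0 replicate 1, VC- day 0 replicate 2 and VC+ day 2 replicate 3) had 8.13, 6.10 and 4.75 and the other 5 had 2.73 to 3.97. Pyy, peptide YY of L cells, was also higher (1.23), whereas Sct (secretin, -3.14), Chga and Chgb (chromogranins of secretory granules, -1.89 and -1.67), Tph1 (serotonin synthesis, -1.61), Neurod1 (-1.19), Gal (galanin; 5.99 to 7.51 on the Hoxb13-high and 7.17 to 8.55 on the Hoxb13-low arrays) and Sst (somatostatin, -0.93) were lower.

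The promoter of Insl5 is shown because this hormone gene had the largest positive difference without overlap and its window holds the word AGATAA, which factors of the GATA family bind, 3 times (capitals). RefSeq lists 2 starts for Insl5 on GRCm38.p6, and the start was chosen by its number of matches to the word. The window shown is chr4:103026679-103026978, minus strand, from 250 bases before to 50 bases after the start.
Insl5 promoter: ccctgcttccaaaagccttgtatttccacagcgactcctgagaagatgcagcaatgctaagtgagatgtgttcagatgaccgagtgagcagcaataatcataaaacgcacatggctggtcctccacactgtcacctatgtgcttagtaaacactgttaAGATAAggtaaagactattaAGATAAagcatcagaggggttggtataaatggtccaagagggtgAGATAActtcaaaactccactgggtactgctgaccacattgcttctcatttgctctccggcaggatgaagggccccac
AGATAA, on either strand, was in 11.2% of 32851 mouse promoters of this length. It was in the promoters of 18 of 184 genes that were higher (9.78%) and of 47 of 335 that were lower (14%), against 579 of 7320 genes tested (7.91%). Of the 24 genes with the largest differences without overlap, 21 had a promoter in the table, and 6 of these held the word.

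Slc51a, Fabp6, Slc10a2, Slc51b and Nr1h4, which take part in bile acid handling, were each lower on the Hoxb13-high arrays. They were set side by side after their values were seen. Slc51a, Slc10a2 and Slc51b share 1 list, that of colonocyte nutrient transporters, and are counted there again. Slc51a, a subunit of the basolateral bile acid exporter, read 3.66 to 4.54 (median 3.71) on the Hoxb13-high arrays, against 8.51 to 11.12 (median 9.82) on the Hoxb13-low arrays. The high arrays lay far below every low array (-6.20 ± 0.30, adjusted p = 5.48e-08). Fabp6, the cytosolic bile acid binding protein, read 5.51 to 6.67 (median 6.10) on the Hoxb13-high arrays and 7.79 to 14.57 (median 9.68) on the Hoxb13-low arrays (-5.05 ± 0.61, adjusted p = 0.00037). The low arrays spread widely for Fabp6, where VC+ day 0 replicates 2 and 3 reached 13.52 and 14.57 while the other 4 stayed at 7.79 to 10.27. Slc10a2, the apical sodium and bile acid uptake transporter, read 3.93 to 7.68 (median 6.38) on the Hoxb13-high arrays and 9.21 to 12.25 (median 9.70) on the Hoxb13-low arrays (-4.68 ± 0.62, adjusted p = 0.000594), with the same VC+ day 0 arrays highest (12.25 and 12.00). Slc51b, the partner of Slc51a, was lower as well (-1.90 ± 0.32, adjusted p = 0.00318). Nr1h4, the bile acid receptor FXR, which was singled out after its values were seen, read 8.76 to 9.70 on the Hoxb13-high arrays and 10.39 to 11.44 on the Hoxb13-low arrays (-1.80 ± 0.20, adjusted p = 0.000167).

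The Slc10a2 promoter is shown because this transporter separated all high from all low arrays and its window holds the word TTTATNG, of the kind bound by Cdx and posterior Hox proteins, 3 times, once on the other strand (capitals). It lies at chr8:5105238-5105537 on GRCm38.p6 (RefSeq), minus strand.
Slc10a2 promoter: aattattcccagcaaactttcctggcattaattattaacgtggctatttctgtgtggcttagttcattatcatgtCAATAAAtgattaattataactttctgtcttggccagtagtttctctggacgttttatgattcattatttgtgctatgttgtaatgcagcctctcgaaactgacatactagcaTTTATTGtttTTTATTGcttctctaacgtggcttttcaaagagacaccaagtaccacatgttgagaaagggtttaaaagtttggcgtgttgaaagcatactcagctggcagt
TTTATNG, on either strand, was in 10.9% of all 32851 promoters, in those of 30 of 184 genes that were higher (16.3%), in those of 39 of 335 that were lower (11.6%) and in those of 659 of 7320 genes tested (9%). A match is a description of the letters only.

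Of 19 colonocyte nutrient transporters tested, 5 were lower and 1 higher (31.6% called, against 7.49% over all genes). The lower ones were Slc51a, Slc10a2 and Slc51b, already described, and Slc7a9 and Slc16a9. Slc7a9, a light chain of cystine uptake, read 3.20 to 3.28 on the Hoxb13-high arrays and 4.11 to 9.91 (median 7.28) on the Hoxb13-low arrays (-4.40 ± 0.63, adjusted p = 0.00103). Of 12 genes of the small intestine and proximal epithelium, 4 were lower (Fabp6, Alpi, Cubn and Apob) and 1 higher, or 41.7% called. Alpi, intestinal alkaline phosphatase, read 2.02 to 8.40 on the Hoxb13-high arrays, against 9.24 to 9.97 on the Hoxb13-low arrays (-3.65 ± 0.87, adjusted p = 0.022). Its lowest values, 2.02 and 2.12, stood on VC+ day 0 replicate 1 and VC+ day 2 replicate 1, the 2 arrays with a Hoxb13 signal of 12.42. The 1 higher gene of that list was Mptx1, a secreted mucosal pentraxin, with 10.72 to 16.70 (median 16.50) on the Hoxb13-high arrays and 7.83 to 11.18 (median 9.05) on the Hoxb13-low arrays (6.44 ± 0.86, adjusted p = 0.000624). Only VC- day 0 replicate 3, the array with pancreas signal, kept the ranges from separating (10.72, the other high arrays 15.53 or more). Fabp2 did not pass (-0.80 ± 0.30, adjusted p = 0.14). Sval1, singled out because its difference was the largest of all genes tested, had 8.09 ± 1.20 (adjusted p = 0.00125, and 0.0643 within groups), with 12.08 to 15.42 on the Hoxb13-high arrays and 3.21 to 12.40 on the Hoxb13-low arrays.

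Genes of electrolyte and water transport changed in both directions. Of 23 genes of aldosterone-regulated sodium and potassium transport, 7 were higher and 2 lower (Slc9a2, -0.62, and Nedd4l, -0.56). Those called were 39.1% of the list, against 7.49% over all genes. Atp12a, the colonic proton and potassium pump, read 6.99 to 13.31 (median 10.72) on the Hoxb13-high arrays and 5.41 to 7.05 (median 6.18) on the Hoxb13-low arrays (4.33 ± 0.66, adjusted p = 0.00157). Its lowest value among the high arrays (6.99) was on VC- day 0 replicate 1, the array with the least Hoxb13. Scnn1a, the alpha subunit of the epithelial sodium channel, had a smaller but cleaner difference, at 6.93 to 7.64 on the Hoxb13-high arrays against 5.52 to 6.06 on the Hoxb13-low arrays (1.39 ± 0.14, adjusted p = 8.62e-05). Best2 (a bicarbonate channel, 2.43), Clca1 (2.18) and Slc26a3 (the chloride and bicarbonate exchanger, 2.07) were also higher, though Best2 and Slc26a3 did not pass within the groups (adjusted p = 0.077 and 0.327). Not all members of the list followed. Scnn1b (-0.46, near background), Sgk1 (-0.04), Nr3c2 (-0.49) and Hsd11b2 (0.60) did not pass, and Scnn1g was not tested. Of 11 carbonic anhydrases and aquaporins, 4 were higher and 4 lower (72.7% called). Aqp4, a water channel, read 10.52 to 11.31 (median 10.94) on the Hoxb13-high arrays and 4.79 to 9.88 (median 6.38) on the Hoxb13-low arrays (4.12 ± 0.69, adjusted p = 0.00286, and 0.109 within groups). Its highest low arrays were again VC- day 2 replicate 1 and VC+ day 2 replicate 2 (9.88 and 9.18). Aqp8 was higher too (4.44), as were Car4 (1.05) and Car2 (0.81), while Car8 (-1.86), Car12 (-1.85), Aqp11 (-1.76) and Car1 (-0.99) were lower.

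Goblet cell products and mucins were higher where they passed, and 30% of those tested were called, against 7.49% over all genes. Of 20 goblet cell and mucin genes tested, 6 were higher and none lower (median difference 0.50): Muc1 (2.53), Clca1 (2.18), Fcgbp (1.78), Retnlb (1.70), Spink4 (1.15) and Muc4 (0.89). Within the genotype and day groups only Clca1 of the 20 passed (adjusted p = 0.0434), and Fcgbp had an adjusted p of 0.0555 there. Agr3 did not pass (0.55 ± 0.34, adjusted p = 0.399). Enzymes that build mucin glycans changed in both directions, 5 higher and 4 lower of 24 (37.5% called). St3gal6, a sialyltransferase, was higher (10.54 to 12.26 on the Hoxb13-high arrays and 7.80 to 9.90 on the Hoxb13-low arrays; 2.44 ± 0.33, adjusted p = 0.00069), while A4gnt, which caps gastric type mucin glycans, and Gcnt3, a branching enzyme, were lower (-2.46 and -2.20). B3gnt5 and B3gnt7, which extend glycans with N-acetylglucosamine, stood among the 12 largest positive differences of genes without overlap. B3gnt5 read 9.57 to 11.40 on the Hoxb13-high arrays and 5.10 to 7.97 on the Hoxb13-low arrays (3.55 ± 0.43), and B3gnt7 read 7.75 to 11.30 on the Hoxb13-high and 5.12 to 7.02 on the Hoxb13-low arrays (3.24 ± 0.55).

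The remaining large positive differences were in genes of other kinds. Sycn, syncollin of secretory granules, read 9.99 to 12.62 (median 11.47) on the Hoxb13-high arrays and 6.91 to 8.13 (median 7.26) on the Hoxb13-low arrays (3.94 ± 0.41, adjusted p = 0.000125). Although Sycn is best known from pancreas, the array with pancreas signal (11.37) lay inside the range of the other high arrays, and the difference was 3.86 (adjusted p = 0.000428) without it. Nxpe4 read 9.41 to 12.78 on the Hoxb13-high arrays and 6.48 to 7.99 on the Hoxb13-low arrays (3.87 ± 0.42), and Crisp3, a secreted cysteine-rich protein, read 5.96 to 8.59 on the Hoxb13-high and 2.97 to 4.37 on the Hoxb13-low arrays (3.65 ± 0.35). Thbs4, a matrix thrombospondin, read 9.65 to 12.27 on the Hoxb13-high arrays and 4.51 to 8.30 on the Hoxb13-low arrays (3.64 ± 0.50). Prkacb, a catalytic subunit of protein kinase A, had 2.65 ± 0.29, and Meg3, an imprinted long RNA, had 2.90 ± 0.57 (adjusted p = 0.17 within groups). Tgm3, a transglutaminase, was the 1 higher gene of 5 squamous epithelium genes tested, or 20% against 7.49% over all genes (4.15 ± 0.93, adjusted p = 0.0163). It read 1.94 to 9.72 on the Hoxb13-high arrays and 1.93 to 1.96 on the Hoxb13-low arrays, and 20 of the 25 squamous genes measured stayed under 4 on all 14 arrays.

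**Figure D3:**
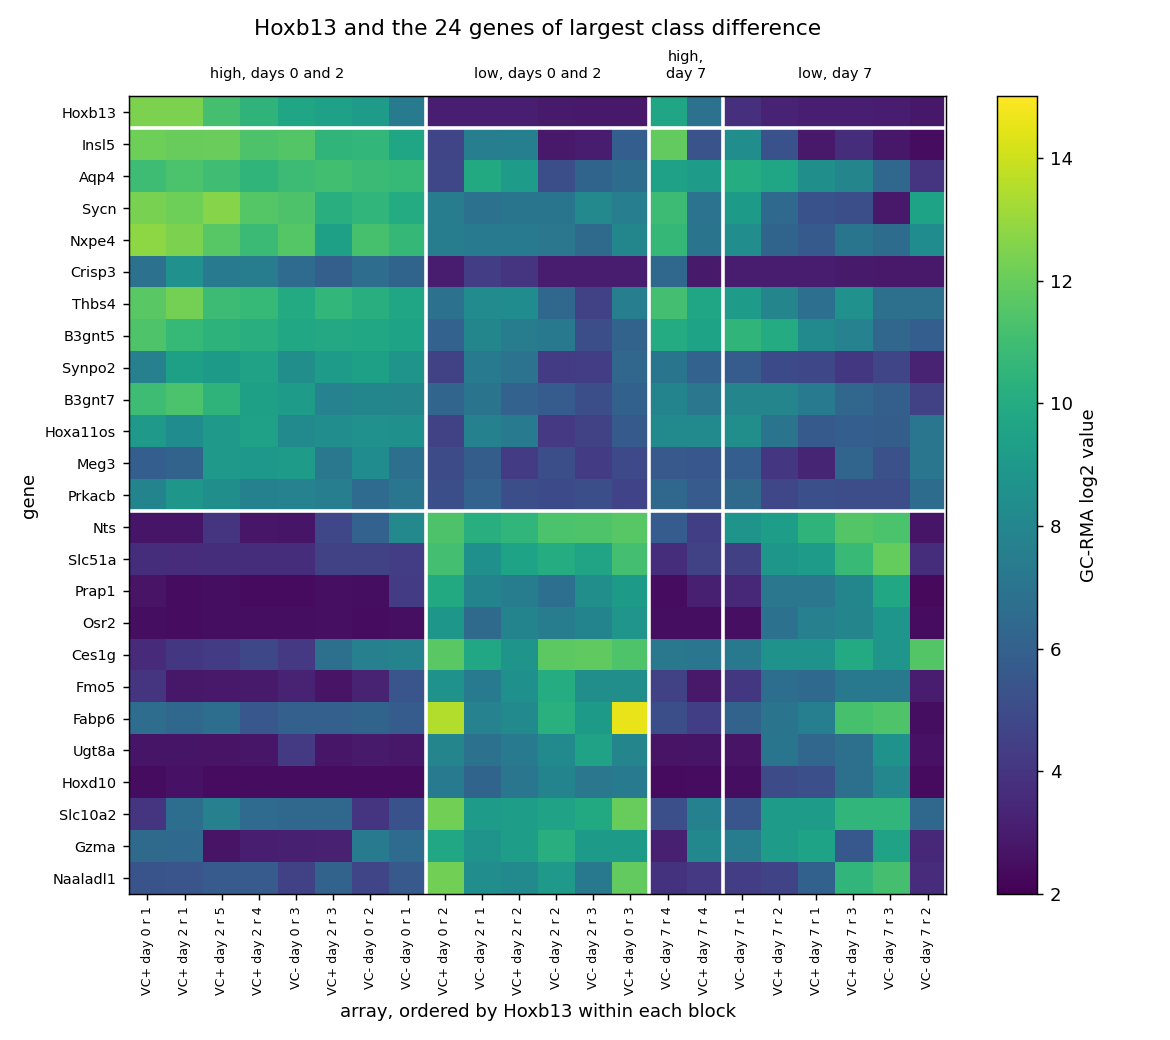
GC-RMA log2 signal (colour scale from 2 to 15) of Hoxb13 (top row), the 12 largest positive and the 12 largest negative differences among genes whose Hoxb13-high and Hoxb13-low arrays did not overlap (rows), on all 22 arrays (columns), ordered by Hoxb13 within each block. The blocks of days 0 and 2 separate by the choice of genes; among the Hoxb13-low arrays of day 7, VC- day 7 replicates 1 and 2 carry Osr2 at 2.54 and 2.41, as the Hoxb13-high arrays do (2.44 to 2.52).

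Enzymes of drug, steroid and lipid handling made the longest list of lower genes. Of 32 xenobiotic and steroid metabolism enzymes tested, 16 were lower and 1 higher (Adh1, 1.61), with a median difference of -1.03. Those called were 53.1% of the list, against 7.49% over all genes. Ces1g, a carboxylesterase, read 3.58 to 7.80 (median 4.56) on the Hoxb13-high arrays and 8.72 to 11.84 (median 11.54) on the Hoxb13-low arrays (-5.43 ± 0.73, adjusted p = 0.000628). Cyp2d26, a cytochrome P450, read 4.99 to 7.67 on the Hoxb13-high arrays and 8.01 to 11.42 on the Hoxb13-low arrays (-4.45 ± 0.57). Cyp2c65 was uneven inside the Hoxb13-high arrays. It read 11.94 to 12.49 on the 3 VC- arrays, all of day 0, and 8.46 on VC+ day 0 replicate 1. The 4 VC+ day 2 arrays read 3.25 to 3.38, and the Hoxb13-low arrays 10.96 to 14.48 (-5.72 ± 0.73). Because no VC- day 2 array was Hoxb13-high, the parts of genotype and day in these values cannot be told apart. Fmo5, a flavin monooxygenase, read 2.70 to 5.40 on the Hoxb13-high arrays and 7.41 to 10.03 on the Hoxb13-low arrays (-5.20 ± 0.41). Prap1 (an epithelial secreted protein, -5.77 ± 0.36), Ugt8a (a galactosyltransferase of ceramide, -4.98 ± 0.35) and Naaladl1 (a peptidase, -4.53 ± 0.47) were also among the 12 largest negative differences of genes without overlap.

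The receptor that the mouse line targets moved with the split as well. Of 19 genes of PPAR signaling and fatty acid metabolism tested, 9 were lower and none higher, with a median difference of -0.65. Those called were 47.4% of the list, against 7.49% over all genes. Pparg itself was lower by 1.21 ± 0.31 (adjusted p = 0.033), with 6.87 to 9.63 (median 8.44) on the Hoxb13-high arrays and 8.50 to 10.96 (median 9.71) on the Hoxb13-low arrays. The call did not hold within the genotype and day groups (-1.27, adjusted p = 0.201) and was lost in 10 of the 14 fits that left out 1 array. At VC+ day 2, the 4 Hoxb13-high arrays read 6.87 to 8.27 and the Hoxb13-low array 9.54; at VC+ day 0, the high array read 8.62 and the low arrays 8.50 and 8.83. Ppara was lower with no overlap, at 5.22 to 6.69 on the Hoxb13-high arrays against 7.31 to 8.26 on the Hoxb13-low arrays (-1.76 ± 0.22, adjusted p = 0.000442). Pdk4, which restrains glucose oxidation (-1.80), and Acaa1b, a peroxisomal thiolase (-2.94), were lower too. Acaa1b was high on 4 low arrays only, the 3 VC- day 2 arrays (10.74, 9.03 and 8.02) and VC+ day 2 replicate 2 (4.86). It read 2.48 and 2.52 on the VC+ day 0 low arrays, against 2.40 to 2.65 on the Hoxb13-high arrays. Its difference was -6.69 on the VC- arrays, where class and day cannot be told apart. Within the groups Acaa1b did not pass (-1.32, adjusted p = 0.283). Of 20 sterol and fatty acid synthesis genes, 8 were higher and none lower (40% called), by 0.77 (Insig1, adjusted p = 0.0269) to 2.62 (Scd2, a desaturase). Only Scd2 of the 20 passed within the groups (adjusted p = 0.0346).

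Of 7 genes of T cells and intraepithelial lymphocytes tested, 4 were lower (57.1% called, against 7.49% over all genes), and none of them passed within the genotype and day groups. Gzma, the protease granzyme A, read 2.70 to 7.31 (median 4.81) on the Hoxb13-high arrays and 8.73 to 10.13 (median 9.14) on the Hoxb13-low arrays (-4.60 ± 0.73, adjusted p = 0.00199, and 0.0663 within groups). Gzmb, granzyme B, read 2.29 to 5.73 on the Hoxb13-high and 6.90 to 8.80 on the Hoxb13-low arrays (-3.80 ± 0.57, adjusted p = 0.00137, and 0.0598 within groups). Cd3g and Cd3d of the T cell receptor complex had -1.71 and -1.26 (adjusted p = 0.42 and 0.354 within groups), and 9 of the 18 genes of the list that were measured stayed under 4 on all 14 arrays. Ikzf3 did not pass (-1.16 ± 0.34, adjusted p = 0.0583). The mean of the list per array was 3.06 to 3.82 on the Hoxb13-high and 3.84 to 4.57 on the Hoxb13-low arrays. The ranges all but met, with VC+ day 0 replicate 1 at 3.82 and VC- day 2 replicate 1 at 3.84. The part of lymphocyte number in these values was not tested. Of 14 epithelial antimicrobial genes, 3 were lower and 2 higher (35.7% called). Reg3b, a lectin that binds bacteria, read 3.93 to 14.01 (median 8.16) on the Hoxb13-high arrays and 13.78 to 14.94 (median 14.46) on the Hoxb13-low arrays (-5.91 ± 1.27, adjusted p = 0.0124, and 0.076 within groups), and Reg3g gave -5.87. The single high array inside the low range was VC+ day 2 replicate 3 (14.01), and the next was 11.14. Saa3, serum amyloid A3, was lower by 3.25 ± 0.42 (adjusted p = 0.000481) as the 1 called gene of 17 cytokine, chemokine and acute phase genes tested, and Cd14 was the 1 higher of 17 macrophage and neutrophil genes (0.78 ± 0.21, adjusted p = 0.0449). Each is 5.88% of its list, below the 7.49% called over all genes. The call of Cd14 was lost in 11 of the 14 fits that left out 1 array.

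Few smooth muscle genes passed the test, although their mean level moved with the split. The mean of the 21 smooth muscle genes was 9.11 to 10.40 (median 10.12) on the Hoxb13-high arrays, against 8.88 to 9.94 (median 9.30) on the Hoxb13-low arrays, and their median difference was 0.56. Of these 21, Synpo2, an actin-binding protein of muscle (7.65 to 9.51 on the Hoxb13-high arrays and 4.27 to 7.29 on the Hoxb13-low arrays; 3.37 ± 0.51), and Tagln (0.65 ± 0.18, adjusted p = 0.0472) were higher and none was lower, a share close to the 7.49% called over all genes. None passed within the genotype and day groups, and Tagln lost its call in 12 of the 14 fits without 1 array. For Synpo2, the probe set with the highest mean gave -0.58 instead (adjusted p = 0.135). With the smooth muscle level of each array as a further term, an alternative chosen after the data were seen, 89 genes were higher and 189 lower, and Slc51a (-6.24), Osr2 (-5.50), Hoxd10 (-4.39) and Insl5 (4.86) still passed, whereas Aqp4, Hoxa9, Hoxa10, Hoxa13, Gzma, Reg3b and Pparg did not. Of the crypt base and Wnt target genes, 2 of 17 were lower (Wif1, -1.70, and Rnf43, -0.85), again near the 7.49% over all genes and with none called within the groups, and Ascl2 (-0.59), Axin2 (-0.47) and Ephb3 (-0.12) did not pass. Chrdl1, a BMP antagonist, was the 1 gene called of 20 Hedgehog, BMP and Wnt ligand genes (0.98 ± 0.13), which is 5% against the 7.49% over all genes. Of 14 claudin and tight junction genes Cldn2 was lower (-1.82) and Cldn5 higher (0.91), or 14.3%, with none called within the groups.

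Genes of other tissues were few. With 2 or 3 genes tested in a list, the share called says little beside the 7.49% over all genes. Cela1 was higher as 1 of 3 pancreatic genes tested (2.26 ± 0.50, adjusted p = 0.0144), and gave 1.95 (adjusted p = 0.0152) without the array with pancreas signal. Spink1 was higher as 1 of 2 genes tested of the urogenital list (4.00 ± 0.53, adjusted p = 0.000628). It read 7.64 to 14.94 on the 14 arrays, whereas 12 of the 15 genes of that list that were measured stayed under 4 on all of them. No gene passed limma's test among 36 of mitosis and DNA replication (0 at an unadjusted p under 0.05), 19 of collagens and matrix (8), 18 of MHC class II and interferon response (2), 10 of enteric neurons and glia (0), 8 of B and plasma cells (0), 6 of fat (0), 4 sex-linked genes (0) and 3 of skeletal muscle (1), and none of the 3 blood genes measured was variable enough to be tested.

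**Figure D4:**
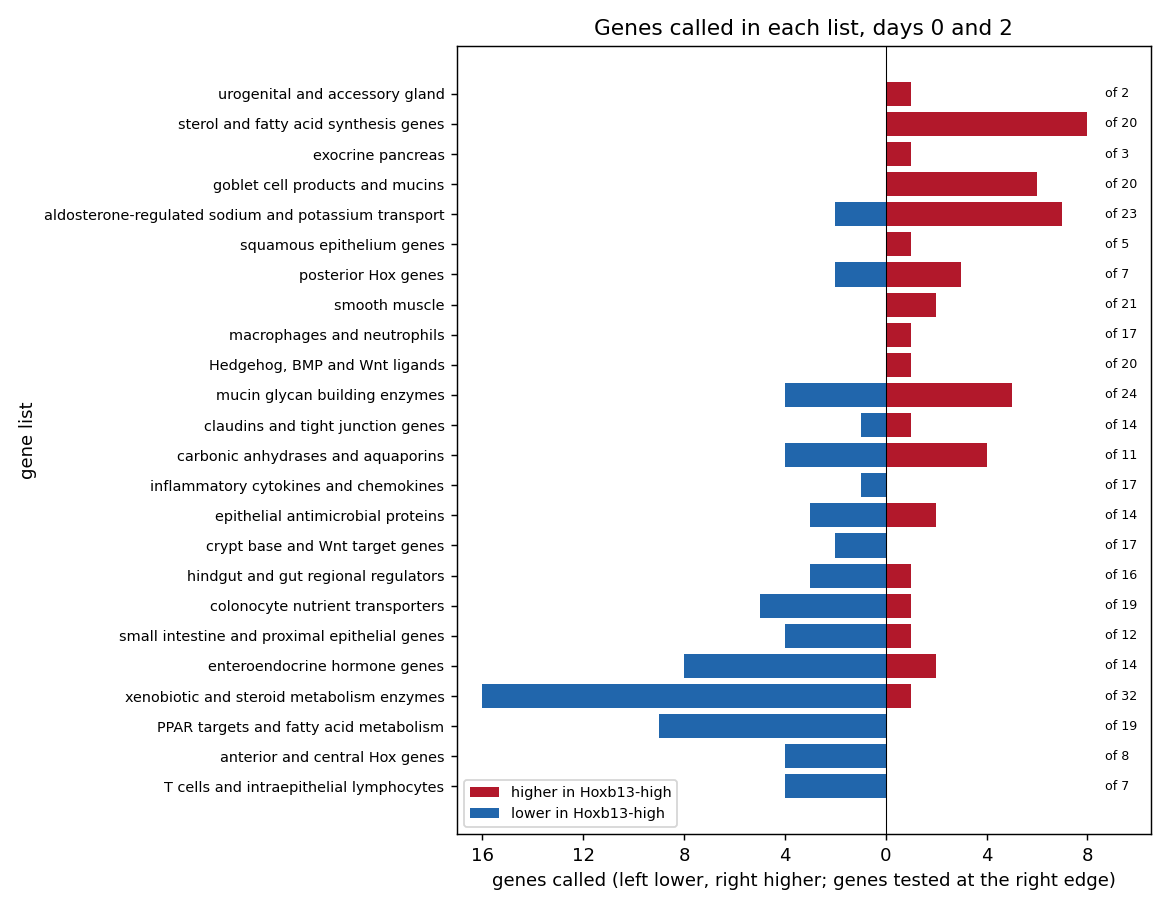
Number of genes in each list (rows, ordered by the net share higher) that were higher (red, to the right) or lower (blue, to the left) on the Hoxb13-high than on the Hoxb13-low arrays of days 0 and 2, with the number tested at the right edge. The longest bar to the left is 16 of 32 xenobiotic and steroid enzymes and the longest to the right 8 of 20 sterol and fatty acid synthesis genes; lists with no called gene are left out.

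The correlation of each gene with Hoxb13 is largely set by the split itself, and Osr2 and Hoxd10, which hardly varied among the high arrays, both reached -0.93. Over the 14 arrays, of which 6 lie at the Hoxb13 background and which share their genotype and day groups, the highest Pearson correlations with Hoxb13 were those of Sycn (0.98), Htr4 (a serotonin receptor, 0.97), Scnn1a (0.97), Clic6 (0.97), Ano1 (a calcium-activated chloride channel, 0.96) and Atp12a (0.96). The lowest were those of Ces2e (-0.98), Nts (-0.97), Mfap3l (-0.96), Aldh1a1 (a retinaldehyde dehydrogenase, -0.96), Hoxb3 (-0.96) and Lpin2 (-0.96). Aldh1a1 read 9.97 and 10.38 on the 2 arrays with Hoxb13 at 12.42, 11.10 to 12.30 on the other 6 high arrays, and 12.80 to 14.23 on the Hoxb13-low arrays. Hoxb3 likewise read 5.30 and 5.93 on those 2 arrays and 6.50 to 6.75 on the other high arrays. Osr2 and Hoxd10, by contrast, did not vary among the high arrays beyond 2.44 to 2.52 and 2.41 to 2.63.

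The split was also examined in arrays of each genotype, which share none. In VC+ mice alone, with day as a term, 292 genes passed (3.21%), and in VC- mice alone, where the comparison is day 0 (all high) against day 2 (all low), 7 passed (0.077%; 803 at an unadjusted p under 0.05). Of the 292 genes from VC+ mice, 274 (93.8%) had the same sign in VC- mice, against 69.0% of all genes tested. Their median size was 1.50 in VC+ mice and 0.86, in the same direction, in VC- mice. The Hoxb13-high arrays were mostly of day 2 in VC+ mice (4 of 5) and all of day 0 in VC- mice (3 of 3). Nts, for example, differed between Hoxb13-high and Hoxb13-low arrays by -7.79 in VC+ mice and -5.33 in VC- mice on the log2 scale. Osr2 gave -5.80 in VC+ and -4.78 in VC- mice, and Slc51a gave -6.44 in VC+ and -5.18 in VC- mice. Insl5 gave 5.21 in VC+ and 6.12 in VC- mice, and Mptx1 gave 7.87 in VC+ and 4.01 in VC- mice. Of the 292 genes, 5 also passed on the VC- arrays.

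**Figure D5:**
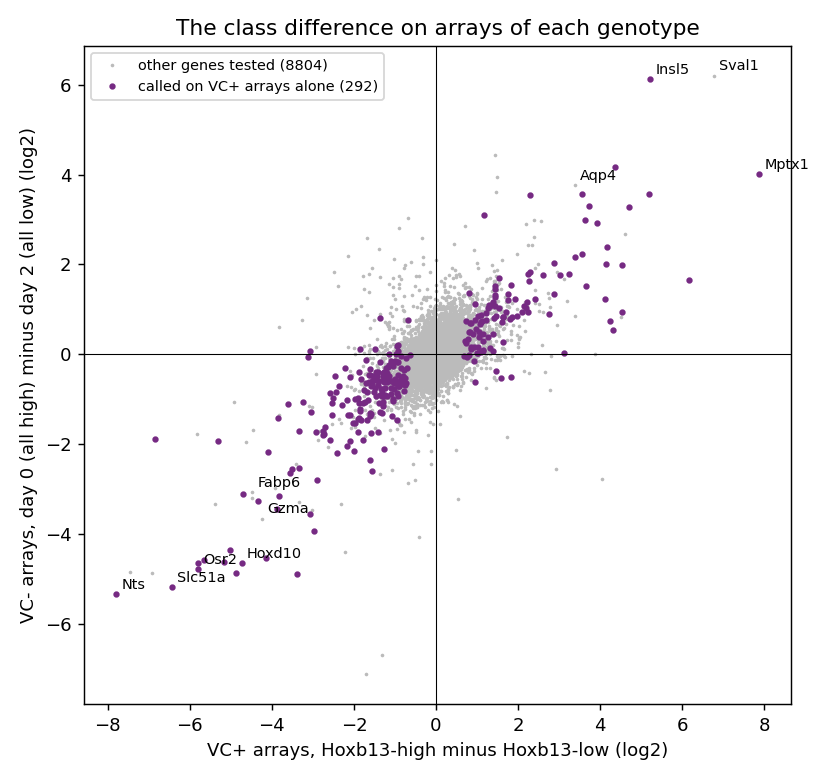
Log2 difference of each gene tested between Hoxb13-high and Hoxb13-low VC+ arrays with day as a term (x axis) and between VC- arrays of day 0, all Hoxb13-high, and day 2, all Hoxb13-low (y axis); purple points are the 292 genes that passed on the VC+ arrays alone, and 274 of them lie in the lower left or upper right quadrant.

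At day 7, on arrays that the rule did not use, the same limits gave 2 Hoxb13-high arrays, VC- day 7 replicate 4 (9.62) and VC+ day 7 replicate 4 (6.88, with Prss2 at 11.20), and 6 Hoxb13-low arrays (2.86 to 3.81). No gene passed limma's test there (0%, with 216 at an unadjusted p under 0.05). None passed the test of the difference between the day 7 and the days 0 and 2 contrasts (0%, with 374 unadjusted). With 2 high arrays at day 7, these tests can miss differences. The second test had the genotype and day groups as terms, so its days 0 and 2 side rests on VC+ arrays. In direction, 589 of the 681 genes (86.5%) had the sign they had at days 0 and 2, against 59.5% of the 9096 genes. The median difference of the 681, taken in that direction, was 0.49 at day 7 and 0.99 at days 0 and 2. Of the genes without overlap at days 0 and 2, all 12 of the largest positive and all 12 of the largest negative differences kept their sign, but only 2 and 1 of them had no overlap, where 371 of all genes tested (4.08%) had none. On VC- day 7 replicates 1 and 2, Hoxb13 was low (3.81 and 2.86), yet Osr2 read 2.54 and 2.41, Hoxd10 2.47 and 2.37, and Slc51a 4.48 and 3.72, as on the Hoxb13-high arrays of either time. The other 4 Hoxb13-low arrays of day 7 had Osr2 at 6.84 to 8.84, Hoxd10 at 5.03 to 8.03 and Slc51a at 8.88 to 11.92. Not every gene read this way on VC- day 7 replicate 2. Its Tbx3 (6.88), Hoxb3 (8.62), Hoxd8 (7.27) and Ces1g (11.54) lay within the Hoxb13-low ranges of days 0 and 2. Its mean of claudin and tight junction genes was 6.10, against 8.33 to 9.14 on the other day 7 arrays. The part of a lower epithelial share in its values was not tested.

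Each day 7 array was also placed against the midpoint between the 2 kinds of array at days 0 and 2, over the same 24 genes. The Hoxb13-high arrays VC- day 7 replicate 4 and VC+ day 7 replicate 4 had 21 and 14 genes on the Hoxb13-high side. Among the Hoxb13-low arrays, VC- day 7 replicates 1 and 2 had 18 and 14, and the other 4 had 0 to 4. For the 12 lower genes alone, the Hoxb13-high arrays had 12 and 11, and so did these Hoxb13-low arrays. For the 12 higher genes, the Hoxb13-high arrays had 9 and 3 and these Hoxb13-low arrays 6 and 3. VC- day 7 replicate 1 also had Insl5 at 8.35, Aqp4 at 10.07 and the highest Hoxb13 of the 6 low arrays. VC- day 7 replicate 2 had Insl5 at 2.44 and Foxa2 at 2.35, and carried the strongest pancreas signal of the series (Prss2 at 14.74); the part of that signal in these values was not tested. Mptx1 separated the 2 high arrays of day 7, with 16.34 on VC- day 7 replicate 4 and 3.11 on VC+ day 7 replicate 4, against 3.03 to 4.56 on the 6 Hoxb13-low arrays. Hoxb13 under 4 and Osr2 near background thus occurred on the same array at day 7, on 2 of 6 low arrays, and on none of the 6 low arrays of days 0 and 2.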

How the data were processed

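The 22 arrays (Affymetrix mouse genome arrays) were normalized by the authors with GC-RMA in R 2.10.1, and the deposited values are log2 signals of 45101 probe sets. From these, 34958 probe sets with 1 gene symbol were reduced to 18194 genes by the largest interquartile range, and the more variable 50% were kept, which left 9096 besides Hoxb13. The log2 signals of the 14 arrays of days 0 and 2 were tested in limma 3.58.1 (R 4.3.3), with genotype, day and Hoxb13 class as terms, two-sided, at a Benjamini-Hochberg adjusted p of 0.05. Day 7 was fitted on its 8 arrays with genotype and class. The arrays give no read depth; their number limits the precision. No 2 arrays held identical values. The procedure was tested on simulated data.

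The members, the 33 gene lists and the rules were chosen with earlier results of these data known, and some genes were in more than 1 list. Genes were named as the 12 largest differences in each direction among called genes without overlap, the 6 highest and 6 lowest correlations with Hoxb13, all posterior Hox genes, up to 4 called members of each list and 11 genes that the allele, the arrays or the day 2 comparison turn on. Nr1h4, Sval1 and further members of the lists were named after their values were seen. A signal under 4 on the log2 scale is called near background. The alternatives changed the covariates, arrays, filters, probe set, array scaling, array weights and spread. Promoters were taken from RefSeq (GRCm38.p6), 250 bases before to 50 after each start. Same-numbered arrays of different groups correlated above 0.1 in 7 of 18 pairs (mean 0.13), against 10 of 54 other pairs (mean -0.05). The labels do not say that equal numbers are pairs, so the main fit did not use them. A fit with the number as a block is given below.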

Additional observations from a re-analysis of the deposited data

Results flagged for a closer look

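Several values stood apart from the rest of their class of arrays by Dixon's ratio, which flags about 1 in 20 groups by chance. Many genes were looked at in 2 classes of arrays, so some such flags arise by chance. The list is not complete, since Reg3a on VC- day 0 replicate 3 (6.47, other Hoxb13-high arrays 2.90 to 3.24) also stood apart. Among the genes of the comparison, VC- day 0 replicate 1 had Prap1 at 4.27 (other Hoxb13-high arrays 2.39 to 2.71), VC- day 0 replicate 3 had Ugt8a at 4.20 (2.68 to 2.93) and VC+ day 2 replicate 1 had Hoxd10 at 2.63 (2.41 to 2.45). VC- day 2 replicate 1 had Prkacb at 6.07 (other Hoxb13-low arrays 4.60 to 5.13). VC+ day 0 replicate 1 had Ikzf3, a lymphocyte transcription factor, at 4.64 (other Hoxb13-high arrays 2.66 to 3.24). Prss2 was at 13.77 on VC- day 0 replicate 3 (other Hoxb13-high arrays 3.67 to 4.20) and at 3.27 on VC- day 2 replicate 2 (other Hoxb13-low arrays 3.62 to 3.80). The same VC- day 2 array was highest for Hoxc13 (2.37, others 2.29 to 2.32), Hoxd11 (2.26, others 2.19 to 2.21) and Hoxd13 (3.15, others 2.97 to 3.02), all near background.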

How the results depend on the processing

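Of 31 alternatives for days 0 and 2, 20 gave a count of higher genes and 23 a count of lower genes within 1.5 times the reported 241 and 440. Outside it lay the 4 genotype and day groups as terms (79 higher and 204 lower), VC+ arrays only (108 and 184), all 22 arrays in 1 fit (17 and 28), no variance filter (144 higher) and array weights (389 higher). Chosen after seeing the data, the smooth muscle level as a term gave 89 and 189, and VC- arrays only gave 1 and 6. Leaving out 1 array gave 100 to 392 higher and 220 to 547 lower genes, the lowest when VC+ day 0 replicate 2 was dropped, the highest when VC- day 2 replicate 1 was; dropping VC+ day 0 replicate 3 gave 109 and 222. The cause was not tested. The replicate number as a block gave 40 higher and 93 lower genes; 10 of 14 arrays were closest to an array of the same number, a hint from the data and not the design. At day 7, no variance filter gave 4 higher and 2 lower genes, and leaving out 1 array gave 0 to 2 in each direction (2 higher when VC+ day 7 replicate 4 was dropped; 1 higher and 2 lower when VC- day 7 replicate 2 was). The difference between day 7 and days 0 and 2 had 5 higher genes with no variance filter and 3 without the 3 arrays with pancreas signal. Of 93 named genes that passed, all kept their direction and call with array medians subtracted and with array weights; 54 did so with the 4 groups as terms, 48 with the replicate block, 19 with all 22 arrays in 1 fit and 5 on VC- arrays only. Turned in direction were Synpo2 (-0.58, probe set with the highest mean) and, on VC- arrays only, A4gnt (0.16), Reg3a (0.77), Cd14 (-0.17) and Insig1 (-0.32). More than 2 of the 14 fits without 1 array lost the call of Alpi (3), Car8 (4), Insig1 (5), Cd3g (6), Slc16a9 (7), Cldn5 and Reg3a (9 each), Pparg (10), Cd14 and Scd2 (11 each), and B3galt5 and Tagln (12 each).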
